A study of Arabidopsis thaliana with 2 samples.

Results

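Protein phosphatases 2C are metal-dependent enzymes that remove phosphate from serine and threonine residues, and plants carry a large family of them. The genes described here were those with a nuclear locus name whose array annotation names a protein phosphatase 2C or PP2C, together with ABI1, ABI2, HAB1 and PP2CA by locus, of which HAB1 entered by its locus alone. This rule took 68 of the 25391 loci on the array, represented by 72 probes. Signal on both arrays was found for 63 of the 68, and for 19592 of the 25391 loci. AT4G11040 had signal only on day 1, with a ratio of 21.7%, and AT3G63320 only on day 8, with 44.0%. AT1G17545, AT3G23360 and AT4G08260 had no signal on either array. Over all loci, 1759 had signal on day 1 only, 1271 on day 8 only and 2765 on neither. Signal was judged from the ratio alone, so a gene given as without signal may still have been expressed. A further 12 phosphatases of the same clades, such as HAB2 and TAP38, carry other words in their annotation. They are named below for comparison and are not counted among the 68.

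The samples were suspension cells of Arabidopsis thaliana strain T87, kept in a modified LS medium under long days and harvested 8 days and 1 day after inoculation. Each day is 1 array with 2 channels and 1 biological replicate, and the labels name no treatment and no transgene or mutation for either. Polysomal RNA was the pool of gradient fractions 1 to 3 and total RNA the pool of fractions 1 to 8. The polysome ratio of a gene, the authors' deposited value, is polysomal over total RNA and is printed as a percent.

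In the abscisic acid (ABA) pathway the phosphatases of clade A are co-receptors. Without the hormone they keep SnRK2 kinases dephosphorylated and inactive, and hormone-bound receptors of the PYR/PYL family inhibit them, which frees the kinases to phosphorylate transcription factors and ion channels. Other clades act elsewhere. AP2C enzymes dephosphorylate MAP kinases, POL and PLL1 act in stem cell maintenance, and some clade D enzymes dephosphorylate the plasma membrane proton pump. A pair of chloroplast enzymes dephosphorylates proteins of the photosynthetic antenna and of photosystem II.

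The direction of the ratio is likely rather than settled, since the labels describe the Cy5 channel as polysomal RNA while naming fractions 1 to 3 as the source of the Cy3 channel. It was read as polysomal over total from the design text and the name of the deposited measure. One sentence of the labels calls the other pool nonpolysomal, in which case a percent would be relative to mRNA outside polysomes. If the ratio ran the other way, each percent would become its reciprocal and each change would turn its sign, so that higher and lower, and highest and lowest, would change places throughout: the 52 members given below as lower on day 8 would be 52 higher. Sizes of changes and the comparison of counts with all genes would stay. With 1 array a day no difference between days has a replicate check, and no p-value is given. Within an array, different probes of the same gene spread with a median SD of 0.33 (day 8) and 0.14 (day 1) on the log2 scale over 539 genes with at least 2 probes. For the change between days their median SD was 0.30 and its 90th percentile 1.01. All but 4 of the 68 genes have a single probe. The probes' letters were not examined, so signal shared between close relatives cannot be told apart. In a culture, a shift of a gene's mRNA in all cells and a change in the mix of cells cannot be told apart either.

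As a family, the phosphatases stood where other genes stood. The median ratio of the 63 measured members was 24.3% on day 8 and 35.1% on day 1, against 24.2% and 36.0% for the 19592 genes with signal on both days. The members' interquartile range on the log2 scale was 0.95 on day 8 and 0.30 on day 1, close to 1.00 and 0.32 for all genes. As deposited, the ratio was lower on day 8 for 52 of the 63 members (82.5%), where 81.3% of all genes were lower. It was higher for 11 members, where 18.5% of all genes were higher. A day 8 ratio lower by 2-fold or more was seen for 15 members (23.8%), against 25.7% of all genes. No member was higher by that much, against 1.21% of all genes. The members' median change was -0.55 and that of all genes -0.52 (log2). Each of these shares is near that of all genes.

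The place of 0 matters for these counts, because 10 spike-in probes had a median change of -0.29 between the arrays. Single spike-in probes ran between -0.55 and 0.61, so that median is itself a loose reference. Set against the spike-ins, 39 members were lower and 24 higher, where 64.0% and 36.0% of all genes were. Changes are also given relative to the median gene. On that scale 34 members lay below the median gene, 28 above and PIA1 at it, where 50.0% of all genes lay below. Relative to the median gene 7 members were at least 2-fold lower and AT5G53140 alone was at least 2-fold higher, against 10.9% and 4.46% of all genes. Spearman's rho between day 8 and day 1 ratios was 0.38 over the 63 members and 0.39 over all genes, as a description of genes that share both arrays. The order of members by change followed the order by day 8 ratio (rho 0.92) and not that by day 1 ratio (rho 0.04). Both ratios enter the change, so these values describe its make-up and are not independent of it. Among the highest 20% of genes stood 12 members on day 8 and 10 on day 1, where 20% and 19.7% of all genes did.

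**Figure D1:**
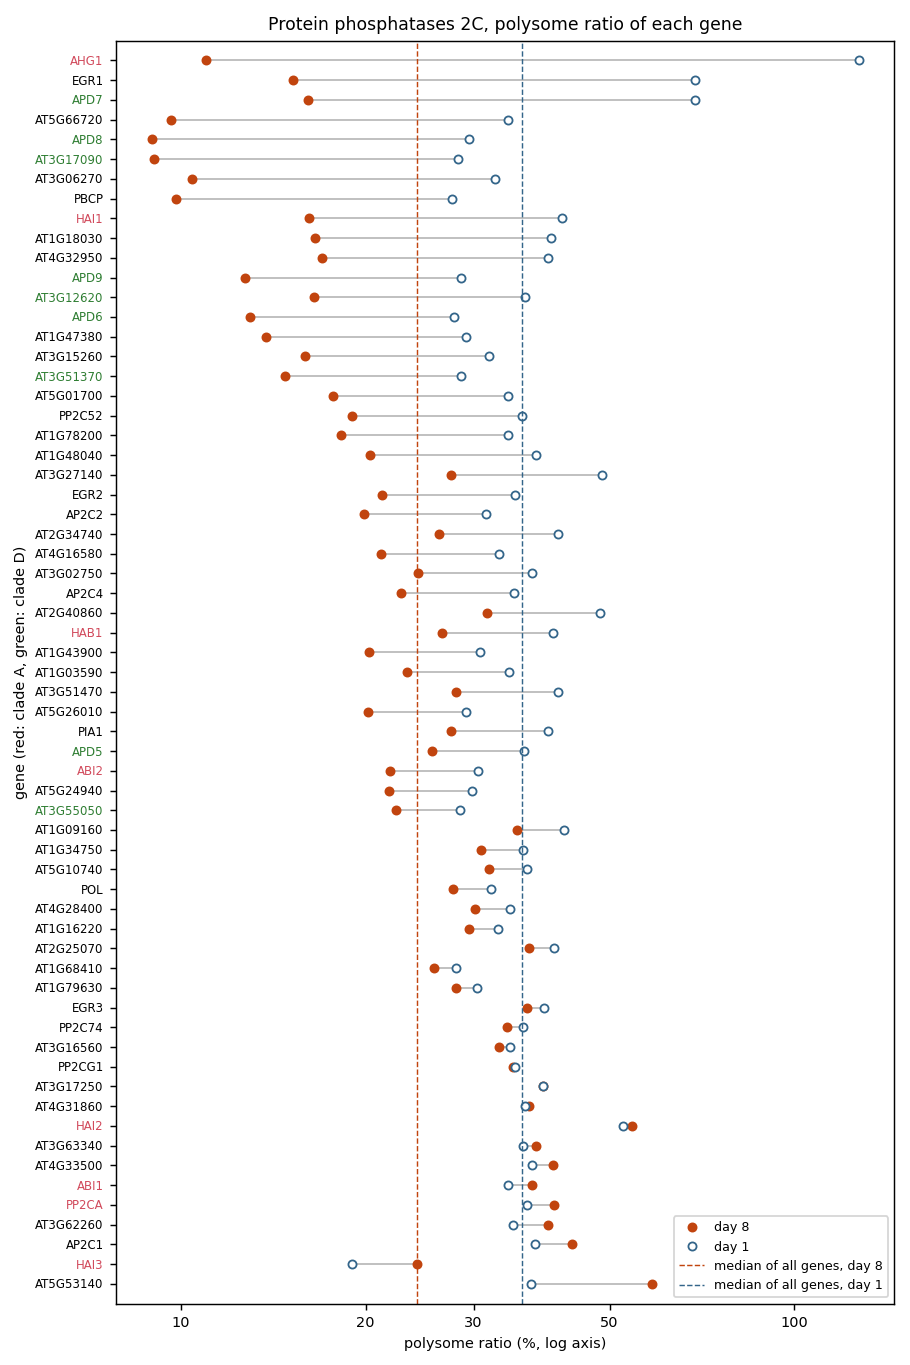
Polysome ratio (percent, log axis) of each of the 63 measured phosphatases on day 8 (filled) and day 1 (open), ordered by the change between days, with the medians of all genes as dashed lines and clade A and clade D names in red and green. Day 1 values sit close together around the median of 36.0%, apart from AHG1, EGR1 and APD7 on the right and HAI3 on the left, while day 8 values run between 8.95% and 58.6%.

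The ABA co-receptors of clade A differed among themselves. All 9 genes of the clade had signal on both days. Of these, 5 had higher ratios on day 8 than on day 1 and 4 had lower ones, where 18.5% and 81.3% of all genes did. Without HAB2, the 8 taken by the rule had 4 higher and 4 lower. The higher ones include HAI2 and HAI3, each close to the no-signal value on 1 day. ABI1, named for the ABA-insensitive mutant in which it was found, had 37.3% on day 8 and 34.2% on day 1. Its log2 change of 0.13 is smaller than the spread between probes of a gene. PP2CA, also called AHG3, had 40.6% and 36.7% (0.14). HAB2, whose annotation reads as a homologue of ABI2, had 39.1% and 38.7% (0.01). These 3 mRNAs kept close to their day 1 ratio while the median gene was lower by 0.52, and on day 8 ABI1 and PP2CA lay above 82.6% and 88.0% of all genes.

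Their nearest relatives did not stand at the same level. ABI2, the closest relative of ABI1, had 21.9% on day 8 and 30.5% on day 1 (change -0.48), and HAB1 had 26.7% and 40.5% (-0.60). Both are near the median gene, at 0.047 and -0.080 relative to it. The changes of ABI1 and ABI2 thus differ by more than the median SD between probes of a gene but by less than its 90th percentile, and each rests on 1 probe.

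AHG1, which acts in seed germination, was the lowest of all 63 members in change, with 11.0% on day 8 and 128% on day 1 (-3.54). A share of total RNA cannot exceed 100%, so the day 1 value cannot be read as a share. On day 1, 0.373% of all genes had a ratio above 100%, and AHG1 was the only measured phosphatase among them. On day 8 its ratio lay above 9.47% of genes.

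The 3 HAI genes, known as strongly induced by ABA, differed widely from one another. HAI1, also studied as a senescence-associated gene, had 16.1% on day 8 and 41.9% on day 1 (-1.38), so it was at least 2-fold lower as deposited and 0.85 below the median gene. HAI2 had 54.5% and 52.6% (0.050). HAI3 had 24.3% and 19.0% (0.36), the lowest day 1 ratio of the family and the highest change within the clade. The HAI2 value of day 1 lies 0.011 from the local value of features without signal on the log10 scale, and the HAI3 value of day 8 lies 0.011 below it, so HAI2 on day 1 and HAI3 on day 8 are close to what a spot without signal gives. Of the 8 clade A genes taken by the rule, AHG1 and HAI1 passed 2-fold downwards as deposited (25.7% of all genes), 5 lay above the median gene and 3 below it. The clade's median change was -0.21 over those 8 genes and 0.01 with HAB2 added; without AHG1 the 7 others had 0.050. Relative to the median gene the median of the 8 was 0.31, so its sign depends on the place of 0 and on single genes.

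**Figure D2:**
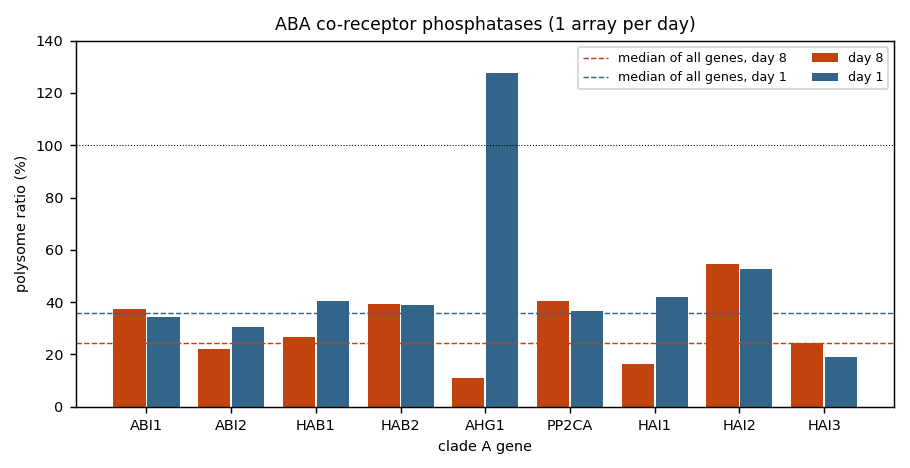
Polysome ratio (percent) of the 9 clade A genes on day 8 (left bar) and day 1 (right bar), 1 array per day and no error bars, with the medians of all genes as dashed lines and 100% as a dotted line. ABI1, HAB2, PP2CA and HAI2 have bars of like height on both days, ABI2, HAB1 and HAI1 are lower on day 8, and the day 1 bar of AHG1 passes 100%.

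The partners of clade A in the ABA pathway were as varied. The 14 PYR/PYL receptors bind the hormone and then the phosphatase. Of them, 10 had signal on both days, as had 19592 of all 25391 loci. PYL2 and PYL10 had signal on day 8 only, and PYL11 and PYL12 on neither. The medians of those 10 were 24.7% (day 8), 34.6% (day 1) and -0.56 (change), and PYL8 alone was at least 2-fold lower (25.7% of all genes), with 9.71% and 35.6% (-1.87). PYR1 had 13.2% and 25.2% (-0.94) and PYL7 had 20.3% and 37.4% (-0.88). PYL9 was the only receptor with a higher ratio on day 8, at 27.9% and 25.8% (0.12), and next to it stood PYL6 with 26.2% and 29.0% (-0.14) and PYL4 with 32.3% and 42.0% (-0.38).

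The SnRK2 family includes the kinase substrates of clade A phosphatases in this pathway. All 10 of its kinases were measured, as were 19592 of all 25391 loci, and 7 kinases lay above the median gene. Which of the 10 are such substrates was not examined here. SNRK2.7 had 84.1% on day 8 and 25.1% on day 1 (1.75) and SNRK2.4 had 66.4% and 31.4% (1.08), both at least 2-fold higher as deposited, where 1.21% of all genes were. At the lower end, SNRK2.6, the guard cell kinase also called OST1, had 19.3% and 41.1% (-1.09) and SNRK2.2 had 19.0% and 32.7% (-0.78). SNRK2.1 had 20.7% and 32.6% (-0.65), and SNRK2.10, next below SNRK2.4, had 39.0% and 40.7% (-0.06). Of 8 ABA response transcription factors, 4 lay above the median gene and 4 below. ABF3, a bZIP factor that SnRK2 kinases activate, had 26.5% and 20.8% (0.35) as the mean of 2 probes that went opposite ways. One gave 21.7% and 32.7% and the other 32.4% and 13.2%, so its place above the median gene rests on 1 probe. ABI4, an AP2 factor of seed and sugar responses, had 23.3% and 60.0% (-1.37). AREB3 had 21.3% and 37.7% (-0.82), ABI5 35.2% and 56.9% (-0.69), ABF4 33.0% and 35.6% (-0.11) and ABF2 29.9% and 33.7% (-0.17). On the log10 scale the day 1 value of ABI5 lies only 0.026 from that of a spot without signal. Those of ABI4 lie -0.034 (day 8) and 0.058 (day 1) from it.

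Clade D includes phosphatases that dephosphorylate the plasma membrane proton pump and are themselves inhibited by small auxin-induced SAUR proteins. Which of its 9 genes do so was not examined here. All 9 had lower day 8 ratios as deposited, as did 81.3% of all genes. Of the 9 members of the clade, 6 passed 2-fold, against 25.7% of all genes. Relative to the median gene 7 lay below, 2 above, and 3 were at least 2-fold lower (10.9% of all genes). The clade's medians were 14.8% for day 8 and 28.6% for day 1, and its median change was -1.14, or -0.62 relative to the median gene. The 54 measured members outside the clade had a median change of -0.52.

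Within clade D the lowest ratios on day 8 were those of APD8, with 8.95% on day 8 and 29.5% on day 1 (-1.72), and AT3G17090, with 9.02% and 28.3% (-1.65). These were also the lowest day 8 ratios of the whole family. APD9 had 12.7% and 28.6% (-1.17), APD6 12.9% and 27.9% (-1.11) and AT3G51370 14.8% and 28.6% (-0.96). The day 1 ratios of these 5 genes lay within 27.9% and 29.5%, so that they differed from one another by less than the probe spread of that day. AT3G55050 shared their day 1 level, with 22.4% on day 8 and 28.5% on day 1, and had the smallest difference of the clade (-0.35).

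The remaining 3 genes of clade D had higher day 1 ratios. APD7 had 16.1% on day 8 and 69.0% on day 1 (-2.10), a day 1 ratio above that of 98.5% of genes. AT3G12620 had 16.5% and 36.4% (-1.14), and APD5 had 25.7% and 36.3% (-0.50), with a day 8 value only 0.009 on the log10 scale from that of a spot without signal. On day 1, 6 of the 9 genes stood among the lowest 20% of genes (19.8% of all genes by construction), and on day 8, 5 of the 9 (19.9%). Over the 63 measured members the counts were 14 on day 1 and 10 on day 8. Below the median of all genes lay 8 of the 9 clade D genes on day 8 and 6 on day 1, so low ratios were not shared by every gene of the clade. Whether the clade differs from other genes was not tested. Among plasma membrane proton pumps, AHA1 had 44.0% and 41.9% (0.07) and AHA2 had 26.7% and 37.3% (-0.48).

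**Figure D3:**
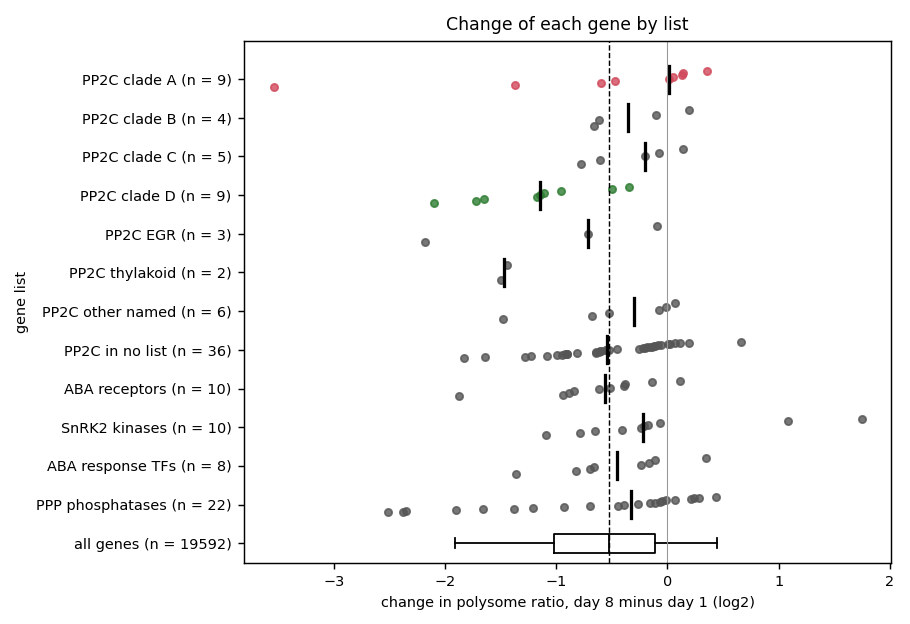
Change in polysome ratio (log2, day 8 minus day 1) of each measured gene by list, with black bars for the list medians, a box for all genes (quartiles and median, whiskers at the 5th and 95th percentiles) and a dashed line at the median gene (-0.52). All 9 clade D genes lie left of 0, while clade A runs between -3.54 and 0.36 with a median of 0.01 over 9 genes, and the 3 lowest PPP phosphatases lie left of every PP2C gene but AHG1.

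The chloroplast phosphatases were low on both days. PBCP, which dephosphorylates core proteins of photosystem II, had 9.79% on day 8 and 27.7% on day 1 (-1.50). TAP38, which acts on the light-harvesting antenna and reverses state transitions, had 10.8% and 29.5% (-1.45). Of their opposing kinases, STN7, which phosphorylates the antenna, had 36.8% and 34.8% (0.08), and STN8, the photosystem II core kinase, had 17.1% and 29.9% (-0.80). The day 1 ratio of STN8 is close to that of TAP38. The STN8 values are means of 2 probes with changes of -1.20 and -0.41, and the other 3 genes have 1 probe each.

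The AP2C phosphatases of clade B, which dephosphorylate MAP kinases in wound and stress signalling, had 2 genes above the median gene and 2 below. AP2C1 had 43.4% on day 8 and 37.8% on day 1 (0.20). Among the 63 members only AT5G53140 and HAI2 had a higher day 8 ratio. AP2C3 had 36.1% and 38.7% (-0.10), AP2C4 had 22.8% and 34.9% (-0.61) and AP2C2 had 19.9% and 31.4% (-0.66). Among their MAP kinase partners, MPK6 had 18.3% and 38.9% (-1.09), MPK3 had 32.7% and 41.0% (-0.33), and MPK4 had signal on day 1 only. The day 8 value of MPK4, 25.4%, lay at the 0.006 limit within which features were left out, so it may have been expressed.

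Clade C holds POL and its relatives, of which POL and PLL1 act in the signalling that maintains stem cells in meristems. POL had 27.8% on day 8 and 32.1% on day 1 (-0.21). PLL5 had 45.0% and 40.7% (0.14) and PLL4 37.3% and 39.4% (-0.08), while PLL1 had 27.9% and 42.4% (-0.60) and PLL2 28.9% and 49.7% (-0.78). The day 1 value of PLL2 lies -0.0335 on the log10 scale from that of a spot without signal. PLL3 had signal on day 8 only. None of the 5 measured genes of the clade passed 2-fold downwards, against 25.7% of all genes.

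The EGR phosphatases, which restrain growth when water is short, differed among themselves. EGR1 had 15.2% on day 8 and 68.9% on day 1 (-2.18), second lowest in change among the 63 members. EGR2 had 21.3% and 34.99% (-0.72), and EGR3 had 36.6% and 39.1% (-0.09). The day 1 ratio of EGR1 is close to that of APD7, and with AHG1 these are the members with the highest day 1 ratios and also the lowest changes. The day 1 ratio enters the change, so these rankings are not independent.

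Other named phosphatases covered the same span. KAPP, which binds receptor-like kinases, had 11.7% on day 8 and 32.4% on day 1 (-1.47). WIN2, found as a target of a bacterial effector, had 20.7% and 33.0% (-0.68), and PIA1, an immune regulator induced by another bacterial effector, had 27.6% and 39.6% (-0.52). DBP1, a DNA-binding phosphatase, had 38.8% and 41.0% (-0.08), PP2CG1, which acts in salt tolerance, had 34.8% and 35.1% (-0.01), and the phytochrome-associated PAPP2C had 38.1% and 36.3% (0.07).

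The 41 members that belong to none of these lists included 36 with signal on both days. They had medians of 26.9% for day 8 and 36.0% for day 1, and 5 of them passed 2-fold downwards, against 25.7% of all genes. The lowest were AT5G66720, with 9.62% on day 8 and 34.1% on day 1 (-1.83), and AT3G06270, with 10.4% and 32.5% (-1.64). AT1G18030 had 16.6% and 40.2% (-1.28). AT4G32950, with 17.0% and 39.7% (-1.23), and AT1G47380, with 13.7% and 29.2% (-1.09), complete the 5. All 5 lay below the median of all genes on day 8, which largely follows from taking them for a 2-fold lower day 8 ratio. Their day 1 ratios lay on both sides of the median gene's 36.0%. AT3G15260, with 15.9% and 31.8%, lay just short of the 2-fold limit, with a day 8 ratio 0.501 times that of day 1.

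At the other end, AT5G53140 had 58.6% on day 8 and 37.2% on day 1 (0.66), the highest change and the highest day 8 ratio of the family. Its day 1 ratio lay above that of 58.1% of genes and its day 8 ratio above that of 98.0%. AT3G62260 had 39.7% and 34.8% (0.19), AT4G33500 had 40.5% and 37.4% (0.11), and AT4G31860 had 37.0% and 36.4% (0.02). Changes of this size, apart from that of AT5G53140, are within the median SD between probes of a gene (0.30). The change of AT5G53140 is above that median but below its 90th percentile (1.01), and it rests on 1 probe. AT3G27140 had 27.5% and 48.5% (-0.82), a day 1 ratio above that of 94.7% of genes, and its day 8 ratio still lay above that of 58.0%. The day 1 value of AT3G27140 lies only -0.026 on the log10 scale from that of a spot without signal. AT1G68410, among the lowest members on day 1, had 25.8% and 28.1% (-0.12).

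The 4 members with a pair of probes show how far a single probe can be taken. The probes of AT3G15260 gave 17.7% and 14.4% on day 8 and 33.4% and 30.2% on day 1, and their changes differed by 0.15 on the log2 scale. Those of PIA1 gave 30.4% and 25.1% on day 8 and 37.8% and 41.5% on day 1. AT2G40860, a protein with both a kinase and a phosphatase part, gave 42.5% and 23.5% on day 8 and 62.1% and 37.5% on day 1, so that its probes differed in level by 0.85 and 0.73 on the log2 scale but in change by only 0.13. AT3G63340 gave 26.5% and 54.5% on day 8 and 33.3% and 39.3% on day 1, with changes of -0.33 and 0.47, which have opposite signs.

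Catalytic subunits of the PPP family, the other large family of plant serine and threonine phosphatases, had a similar median and a different spread. Of 24 listed genes, 22 were measured, with medians of 26.6% on day 8 and 35.8% on day 1. Their interquartile range was 1.33 on day 8 and 0.15 on day 1, against 0.95 and 0.30 for the phosphatases 2C. Among them 7 passed 2-fold downwards as deposited (25.7% of all genes), and 13 lay above the median gene and 9 below. PPX2, of the PP4 type, had 6.17% and 35.2% (-2.51), TOPP1, of the PP1 type, 6.21% and 32.4% (-2.38), and TOPP7 7.35% and 37.4% (-2.35). The BSL phosphatases of brassinosteroid signalling were at the upper end, with BSL3 at 65.8% and 48.8% (0.43), and TOPP8 had 40.3% and 33.0% (0.29) and TOPP5 40.6% and 34.4% (0.24). Whether the families differ was not tested, since each day has 1 array.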

How the data were processed

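The values are the authors' deposited log10 polysome ratios of 39102 array features on each day, and the deposited series value table held the same numbers (largest difference 0). The authors' deposited log10 difference equals day 8 minus day 1 within 0.001. The sources used here do not state how signals were corrected and turned into ratios, and channel signals were not analysed here. Per the labels' protocols, amplification started at an oligo(dT) primer, with spike-in RNAs added to both pools.

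Values were converted to log2. Features without signal share a smooth value over the array, whose median over negative controls is -0.601 (25.1%) for day 8 and -0.269 (53.8%) for day 1 on the log10 scale. This value was estimated from the 30 nearest features within 0.04 of that median, on a grid of 85 columns, and features within 0.006 were left out: 26.9% of gene features on day 8 and 25.5% on day 1, and 95.8% and 94.6% of negative controls. On day 8 this lies mid-distribution, so weak features there resemble a median gene. An expressed gene with such a ratio can also be left out as without signal. On day 1 it lies above the upper quartile of all genes (39.8%), so weak features there resemble high ratios. Between days the no-signal value changes by -1.10 (log2), so weak features can also resemble genes lower by 2-fold. This rule was chosen in earlier work on these data after values were seen. It was tested on simulated data that took the rule's own calls and the negative controls as the truth. That test therefore cannot show whether real features were called rightly. Spots, then probes of a locus with signal on both days, were averaged. Of 37478 gene probes, 25920 carried a locus name and 235 were named by symbol through the RefSeq table of TAIR10.1, giving 25391 loci, of which 25317 are in that table. There are 0 unused columns of per-sample values.

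The members and lists were chosen with earlier results of these data known. The genes named are all clade A and clade list members, the 10 highest and 10 lowest changes of the family, the 5 highest and 5 lowest ratios of each day, and the 3 highest and 3 lowest changes of each other list. Members with a pair of probes, AT4G32950 and AT1G47380 were named after their values were seen. Alternatives tried were the tolerance, the choice of probe, genes above 100%, membership by annotation alone, the place of 0 and the fold. A planned description of the proteins was not made, as no sequences were used here. The number of arrays limits precision. Analyses used Python 3.11.15, pandas 2.3.3, numpy 2.4.6, scipy 1.17.1 and matplotlib 3.10.9.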

Additional observations from a re-analysis of the deposited data

How the results depend on the processing

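No paired analysis was possible because each day has 1 array. With no replicates, a median was taken as moved when it shifted by more than the median SD between probes of a gene. The family medians of each day stayed within 23.1% and 24.7% on day 8 and within 35.03% and 36.0% on day 1 over 5 alternatives each. With 0 at the median gene, the family's median change was -0.033, 7 members were at least 2-fold lower and 1 was higher (10.9% and 4.46% of all genes). With 0 at the median spike-in, 9 were at least 2-fold lower. At 1.5-fold, 31 were lower and 1 was higher. The shares of all genes at 1.5-fold, and at 2-fold against the spike-ins, were not counted. Those counts therefore do not set the family apart from other genes. The median change of clade A turned or moved: it was 0.050 without genes above 100% (AHG1), 0.050 with members by annotation alone (without HAB1), 0.31 with 0 at the median gene, 0.077 with 0 at the median spike-in, and -0.54 under a wider tolerance of 0.012 for features without signal, which left 6 of its genes, without HAI2 and HAI3. Clade D alternatives were chosen after seeing the data. All its measured genes were lower in 6 of 7 of them, and 7 of 9 with 0 at the median gene, where the median change was -0.62. At least 2-fold lower were 3 with 0 at the median gene (10.9% of all genes) and also 3 with 0 at the median spike-in (share of all genes not counted). Leaving out a replicate was not possible. The arrays give no signal over background, so weak features were limited only by the no-signal rule.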

Other observations

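A pair of phosphatase genes follow each other directly in the gene order of TAIR10.1 at each of 2 places. AT1G17545 lies next to HAB2, with 0 coding genes between them, and had no signal on either day while HAB2 was measured on both. AT3G63320 lies next to AT3G63340 and had signal on day 8 only.

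Markers of other cell types were looked up for signal, which 19592 of all 25391 loci had on both days. All 5 markers of green cells had signal on both days, as did all 6 xylem markers. Of 5 guard cell markers, 2 had signal on both days, SLAC1 with 36.7% on day 8 and 40.8% on day 1 and MYB60 with 54.3% and 34.8%, GC1 and KAT1 had signal on day 8 only, and FAMA on neither. Of 5 seed and embryo markers, 3 had signal on both days, LEC1, OLEO1 and FUS3, and 2 on day 1 only. For CRA1, 1 of those 2, the day 1 value lies only 0.015 on the log10 scale from that of a spot without signal. OLEO1, an oil body protein, had 11.7% and 37.1%. The ratios give no level of these mRNAs, so the share of such cells was not measured, and their part in the results was not tested.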
